A study of Mus musculus with 6 samples.

Results

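The organic ion and drug transporters were taken as the protein-coding genes named Slc22a, Slc47a1 or Slc47a2, Slco, Abcb or Abcc with a number, leaving out Slc22a6 and Slc22a8, which gave 51 genes of the 30315 listed and of 18062 protein-coding ones. The measurements came from mouse primary renal tubular epithelial cells (TECs) of C57BL/6 origin, cultured to about 50% confluence. Cells received siSox9, 1 small interfering RNA against Sox9, or the control siRNA siNC, 12 h before hypoxia/reoxygenation (H/R), which was 6 h without glucose at 1.0% O2 and then 18 h in complete medium. RNA-Seq was made from 3 libraries of each siRNA on an Illumina NovaSeq. Every library had gone through H/R, so no value of unstressed cells stands beside these. Nothing in the labels says whether the 3 libraries of a group came from separate cultures or animals, so the p-values measure only the spread between these libraries.

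These transporters carry drugs, toxins, hormones and metabolites across cell membranes, and in the kidney the proximal tubule uses them to secrete organic anions and cations into the urine. The solute carriers of the SLC22 and SLCO (OATP) families include carriers that bring organic ions into the cell from the blood side, and the MATE exporters of the SLC47 family pass cations on into the lumen. The ABC transporters of the ABCB and ABCC (MRP) families use ATP to push drugs and conjugated metabolites out, while some ABCB members sit in mitochondria or lysosomes. The level of each gene is given as FPKM, which scales fragments to exon length and to the reads of the library, so levels can be set side by side between genes of different length.

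Sox9 was at 8.93, 8.61 and 9.07 FPKM in the siSox9 libraries 1 to 3 and at 25.7, 26.5 and 25.6 FPKM in siNC, so that 34.2% of the control level remained (limma, adjusted p = 7.0e-06). The 6 libraries held between 23893197 and 25725743 reads, as recovered from the FPKM values. All 6 epithelial markers were tested, and their summed level was 3755 to 3913 FPKM in siSox9 and 3592 to 3794 FPKM in siNC, with Krt8 and Krt18 on top and Cdh16 higher in siSox9. The proximal tubule markers were low in both groups. Of the 7 listed, Lrp2 alone reached 1 FPKM, Slc34a1 and Slc5a2 were at or near 0, and the sum was 3.01 to 3.34 FPKM in siSox9 and 2.69 to 3.16 FPKM in siNC. Markers of other cells were detected too. The 6 leukocyte markers, led by Lyz2, summed to 138 to 155 FPKM in siSox9 and 135 to 139 FPKM in siNC. The 6 fibroblast and pericyte markers, nearly all Acta2, summed to 659 to 713 FPKM in siSox9 and 710.0 to 749 FPKM in siNC. Apart from Acta2, Col1a1 had a mean of 6.28 FPKM over the 6 libraries, and Pdgfrb, Col3a1, Pdgfra and Dcn were under 1 FPKM. Lyz2 itself was higher in siSox9, at 83.4 ± 3.91 FPKM against 71.9 ± 3.78 FPKM in siNC (limma, adjusted p = 0.0175), while the other 4 leukocyte markers tested did not pass. The sum of the 4 podocyte markers, nearly all Podxl, was 7.82 to 8.58 FPKM in siSox9 and 12.2 to 12.5 FPKM in siNC, with Nphs1 at 0. Podxl, the only podocyte marker tested, was lower in siSox9, at 7.48 ± 0.346 FPKM against 11.6 ± 0.159 FPKM in siNC (limma, adjusted p = 0.000158). The 5 endothelial markers summed to 3.48 to 3.82 FPKM in siSox9 and 3.83 to 4.86 FPKM in siNC. The 4 collecting duct markers, nearly all Hsd11b2, summed to 10.4 to 11.4 and 11.03 to 11.56 FPKM, and the 4 markers of the loop and distal tubule to at most 0.158 FPKM. The part of these cells in the transporter values was not tested, and fewer cells of a type cannot be told apart from less RNA per cell.

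Most transporter genes were scarcely transcribed in these cultures. Of the 51, 18 (35.3%) reached 1 FPKM on average over the 6 libraries and were tested, compared with 10783 (59.7%) of all protein-coding genes. A further 6 had a mean between 0.1 and 1 FPKM, 23 were lower but above 0, and 4 were at 0 in every library. The 2 most abundant genes stood far above the others, Abcc4 at rank 240 and Slco2a1 at rank 937 of the 12009 genes tested when ordered by mean FPKM. Summed over the 51 genes, the level was 324, 319 and 317 FPKM in siSox9 and 294, 281 and 289.8 FPKM in siNC, and the groups did not overlap. Abcc4 by itself made up 52.3% to 53.1% of this sum in siSox9 and 47.2% to 48.4% in siNC. Abcc4 and Slco2a1 together made up 69.3% to 69.9% in siSox9 and 63.7% to 64.3% in siNC. The higher sum in siSox9 thus came from these 2 genes. The remaining genes together summed to less in every siSox9 library than in any siNC library.

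Among the 18 genes tested, 4 were higher and 2 were lower with siSox9 (limma, adjusted p under 0.05 over all 12009 genes). Abcc4, Slco2a1, Abcc1 and Abcb1b rose, and Slc22a23 and Slco3a1 fell. Over all genes tested, 12.8% were higher, 17.6% were lower and 30.4% passed in either direction, so the 33.3% of the transporters that passed was close to the share of the whole table. The groups of libraries did not overlap for 9 of the 18 genes, with siSox9 above in 4 and below in 5, next to 46.3% of all genes tested. The median log2 fold change, siSox9 minus siNC on the scale of log2(FPKM + 1), was 0.03 for the 18 genes and -0.01 for all genes tested. Every change was moderate, none of the 6 means having moved by more than 36.6%. With 3 libraries against 3, an exact permutation test of a single gene cannot give a p-value under 0.1, and each gene whose groups did not overlap reached that limit.

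**Figure D1:**
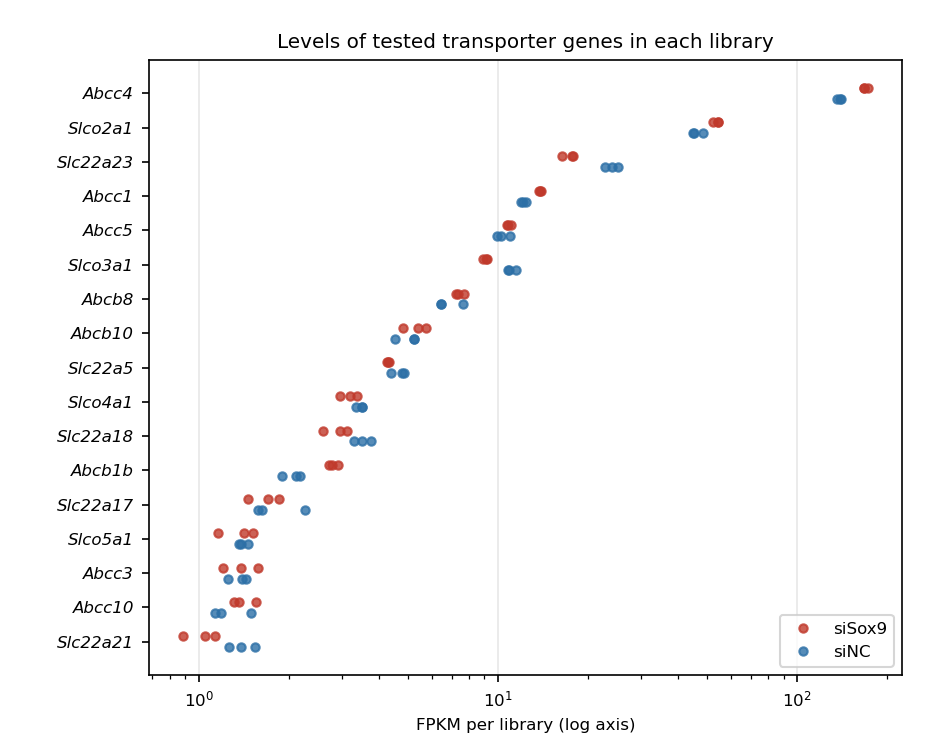
FPKM in each library (log axis) for tested transporter genes, ordered by mean, with siSox9 in red and siNC in blue. The red points lie to the right of all blue points for Abcc4, Slco2a1, Abcc1 and Abcb1b and to the left of them for Slc22a23, Slco3a1, Slc22a5, Slc22a18 and Slc22a21.

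The promoters of the genes that passed the test are shown to give the sequence directly before their start sites. They are from RefSeq on GRCm38.p6, 250 bases each, 5′ to 3′ on the strand of the gene. Capitals mark matches on either strand to the GC box, which is GGGCGG, and to the box known by its letters CCAAT. They also mark the core of the antioxidant response element, TGACNNNGC, and the core sequences bound by SOX proteins, either ACAATG or else the similar ACAAAG. The Abcc4 promoter is at chr14:118706220-118706469 on the - strand, that of Abcb1b at chr5:8797897-8798146 on the + strand, that of Slco2a1 at chr9:103008237-103008486 on the + strand, and that of Slc22a23 at chr13:34345219-34345468 on the - strand.
Abcc4: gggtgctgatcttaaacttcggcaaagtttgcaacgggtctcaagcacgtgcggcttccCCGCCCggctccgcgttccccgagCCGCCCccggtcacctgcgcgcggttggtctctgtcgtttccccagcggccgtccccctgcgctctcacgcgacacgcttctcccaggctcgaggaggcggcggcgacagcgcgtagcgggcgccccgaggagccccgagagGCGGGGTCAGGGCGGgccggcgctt
Abcb1b: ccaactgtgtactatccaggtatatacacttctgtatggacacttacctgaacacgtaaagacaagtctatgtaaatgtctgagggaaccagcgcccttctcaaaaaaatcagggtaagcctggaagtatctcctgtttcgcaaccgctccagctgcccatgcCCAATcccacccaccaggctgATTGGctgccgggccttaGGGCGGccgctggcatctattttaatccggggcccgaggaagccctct
Slco2a1: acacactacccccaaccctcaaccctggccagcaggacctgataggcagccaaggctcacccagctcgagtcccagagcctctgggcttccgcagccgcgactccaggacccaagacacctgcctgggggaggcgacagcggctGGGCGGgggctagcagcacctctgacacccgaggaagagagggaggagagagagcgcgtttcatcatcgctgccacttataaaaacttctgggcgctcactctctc
Slc22a23: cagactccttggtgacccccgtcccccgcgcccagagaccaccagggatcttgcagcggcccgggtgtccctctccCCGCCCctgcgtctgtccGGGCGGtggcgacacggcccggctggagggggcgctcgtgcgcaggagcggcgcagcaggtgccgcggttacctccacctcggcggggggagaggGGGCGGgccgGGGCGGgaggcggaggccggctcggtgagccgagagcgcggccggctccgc
Abcc1 and Slco3a1 had no entry. The Slco2a1 entry starts 19775 bases from the gene start in the expression table, and Abcc4 has a second RefSeq start 29288 bases from the first.

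In these windows the GC box was the match seen most, 3 times in Abcc4, 1 time in Abcb1b, 1 time in Slco2a1 and 4 times in Slc22a23. The GC content was 72%, 52.8%, 63.2% and 78.4% in the same order, and the median over all 32851 promoters of the table was 52.4%. Abcb1b carried 2 CCAAT boxes, 87 and 66 bases before its start, and Abcc4 carried TGACNNNGC 25 bases before its start. Neither SOX core was found in the 4 windows printed. The second Abcc4 start had 1 ACAAAG 105 bases before it and another TGACNNNGC. Over the 11 tested transporters with an entry, 7 held a GC box, 1 a CCAAT box, 2 a TGACNNNGC, 2 an ACAATG and 1 an ACAAAG. Among all promoters of the table these motifs were in 32.7%, 33.8%, 10.2%, 10.7% and 16.5%. The 11 genes had 14 promoters, and a gene counted if any of its promoters matched. The percentages are per promoter over genes at any level, so counts and percentages are not in like units. A match is a description of the letters only, and the data hold no binding of any factor.

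Among the 8 MRP exporters, 5 were tested, and 2 of them were higher with siSox9 and none was lower, with adjusted p from 0.305 to 0.908 for the other 3. Abcc4 encodes MRP4, which exports cyclic nucleotides, prostaglandins, urate and organic anions and lies in the luminal membrane of the proximal tubule. The gene spans 118482692 to 118706219 on chromosome 14 of GRCm38, on the - strand. Its level was 172.1, 166.7 and 167.6 FPKM in siSox9 and 138.8, 136.3 and 140.1 FPKM in siNC. The lowest siSox9 library was thus well above the highest siNC library. The means were 169 ± 2.93 and 138 ± 1.94 FPKM (SD, n = 3 each), a rise of 22.0%, with a log2 fold change of 0.28 (SE 0.028, limma, adjusted p = 0.000556). Abcc1 encodes MRP1, which exports glutathione conjugates and leukotrienes. It was at 13.7, 13.9 and 13.8 FPKM in siSox9 and at 12.4, 12.0 and 12.1 FPKM in siNC, a rise of 13.7% that was small but larger than the spread within either group (log2 fold change 0.17, SE 0.031, limma, adjusted p = 0.0061).

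The other 3 MRP exporters tested overlapped between the groups. Abcc5, an exporter of cyclic nucleotides, had means of 10.9 ± 0.159 and 10.4 ± 0.497 FPKM in siSox9 and siNC, and the 95% interval of its log2 fold change reached from -0.04 to 0.16. Abcc3, which exports glucuronides at the basolateral side, was at 1.39 ± 0.185 and 1.36 ± 0.0967 FPKM, with an interval from -0.17 to 0.20. Abcc10, an exporter of lipophilic anions, was at 1.41 ± 0.129 and 1.27 ± 0.196 FPKM, with an interval from -0.11 to 0.29. The pseudocount shrinks differences of genes at such low levels, so the intervals of Abcc3 and Abcc10 cannot be set directly against the difference of Abcc4. Abcc2, the luminal exporter of conjugates in the liver and proximal tubule, had 1 to 8 reads in a library, Abcc12 had 2 to 8, and Abcc6 had none. For Abcc6 this allows up to 0.0219 FPKM, the value of 3 reads in the library where they weigh most. The sulfonylurea receptors Abcc8 and Abcc9, which share the MRP fold but regulate potassium channels, were both under 0.1 FPKM on average.

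Of the 5 full-length ABCB genes, which include the P-glycoproteins, Abcb1b was the only one tested, and it was higher with siSox9. P-glycoprotein exports a broad range of uncharged and cationic drugs, and mice have a pair of genes for it, Abcb1a and Abcb1b. Abcb1b stood at 2.78, 2.73 and 2.92 FPKM in siSox9 and at 2.11, 1.90 and 2.17 FPKM in siNC, without overlap. This was the largest relative rise among the tested transporters, 36.6% in mean FPKM, with a log2 fold change of 0.32 (SE 0.057, limma, adjusted p = 0.00599). It rested on 572, 554 and 558 reads in siSox9 and 418, 366 and 431 reads in siNC, and limma voom on these reads gave a log2 fold change of 0.45 (adjusted p = 0.000166). On FPKM with a pseudocount of 0.1 in place of 1 the log2 fold change was 0.43, since a pseudocount shrinks the fold change of low genes. Abcb1a was at 0.163, 0.259 and 0.260 FPKM in siSox9 and at 0.176, 0.340 and 0.139 FPKM in siNC, with full overlap. Abcb4, the phospholipid exporter of bile, had 12, 11 and 11 reads in siSox9 and 21, 12 and 23 in siNC. The groups met at 12 reads, and only the scaling to library reads set siSox9 lower in FPKM, by 0.00325 FPKM at the nearest. Abcb4 was too low to be tested and had no unadjusted p under 0.05 with no filter. Abcb11, the bile salt exporter, had at most 4 reads and Abcb5 at most 1.

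Abcb1a, Abcb1b and Abcb4 lie next to each other on chromosome 5 within 299 kb, from 8660077 to 8959231, and share sequence. Of the different 50-base stretches in the transcripts of a gene, those found also in another gene were 17.6% for Abcb1a, 11.6% for Abcb1b and 2.83% for Abcb4. The longest stretch common to Abcb1a and Abcb1b is 338 coding bases across exons 13 and 14 of 28. The 120 spliced bases below are part of it and are the same in both genes, with capitals on the 5 codons of LSGGQ, the signature motif of the ATP-binding unit. They lie at chr5:8702557-8702896 in Abcb1a and at chr5:8824877-8825216 in Abcb1b, both on the + strand of GRCm38, with the intron between the exons inside these coordinates.
Abcb1a and Abcb1b: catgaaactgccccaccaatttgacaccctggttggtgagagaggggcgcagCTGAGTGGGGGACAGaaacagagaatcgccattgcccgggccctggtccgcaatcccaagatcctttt
How reads from such stretches were assigned is not given in the sources used here, so the split between Abcb1a and Abcb1b is uncertain. On the opposite strand, 1.79% of the exon bases of Abcb1b are overlapped by the antisense gene Gm5106.

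**Figure D2:**
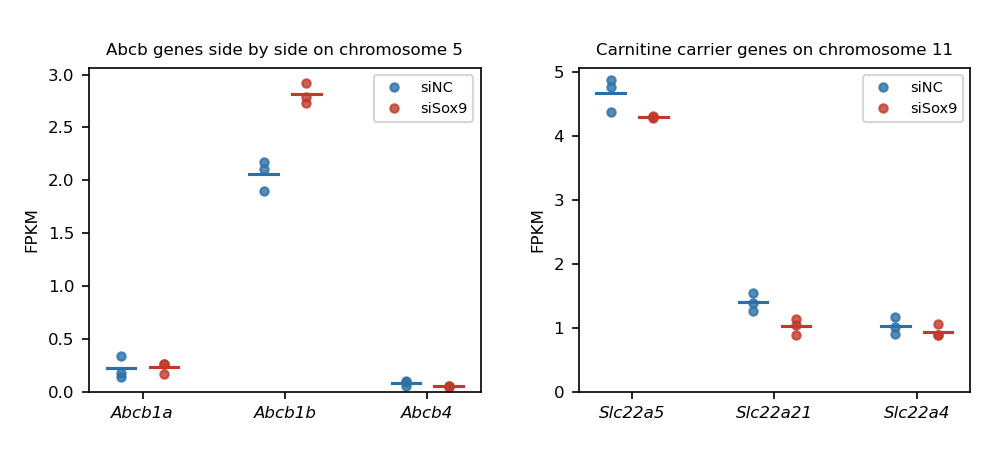
FPKM in each library for neighbouring transporter genes that share sequence, with the Abcb genes of chromosome 5 on the left and the carnitine and ergothioneine carriers of chromosome 11 on the right. Points are libraries and bars are means of 3, and the siSox9 points lie above those of siNC for Abcb1b and below them for Slc22a5, Slc22a21 and, at under 0.1 FPKM, Abcb4.

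The smaller ABCB proteins work as dimers inside the cell, and none of the 3 tested passed the threshold. Abcb8, a mitochondrial transporter, was at 7.23, 7.70 and 7.37 FPKM in siSox9 and at 7.63, 6.45 and 6.45 FPKM in siNC, so 1 siNC library lay inside the siSox9 range. Its log2 fold change was 0.11 with all libraries (limma, adjusted p = 0.243). It was 0.18 without siNC replicate 1 (limma, adjusted p = 0.0231), but leaving out the library that overlapped separates the groups by construction. With any other library left out, Abcb8 did not pass (limma, adjusted p from 0.282 to 0.502). Abcb10, another mitochondrial transporter linked to heme synthesis, was at 5.33 ± 0.458 and 5.00 ± 0.414 FPKM (limma, adjusted p = 0.457), and 10.3% of its exon bases are overlapped by the antisense gene Gm45890. The lysosomal peptide transporter Abcb9 was at 0.134 to 0.247 FPKM in siSox9 and 0.201 to 0.316 FPKM in siNC. Abcb6 had at most 4 reads in a library, and 55.2% of its exon bases are overlapped by Gm29253 on the same strand.

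Of the 13 OATP carriers, 4 were tested, of which 1 was higher, 1 was lower and 2 did not pass the threshold. Slco2a1 encodes the prostaglandin transporter, which takes prostaglandins up from outside the cell. It was at 54.4, 54.5 and 52.4 FPKM in siSox9 and at 48.3, 44.8 and 45.2 FPKM in siNC, and the groups stood apart by 4.14 FPKM at their nearest. The rise was 16.6% in mean FPKM, with a log2 fold change of 0.22 (SE 0.038, limma, adjusted p = 0.00539). Slco3a1, a widely expressed carrier of prostaglandins and thyroid hormone spanning 74275419 to 74554780 on chromosome 7 (- strand), went the other way. Its level was 9.18, 8.92 and 9.14 FPKM in siSox9 and 11.5, 10.8 and 10.9 FPKM in siNC, every siSox9 library being below every siNC library. The mean fell by 18.0%, with a log2 fold change of -0.26 (SE 0.036, limma, adjusted p = 0.00225).

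Slco4a1, a carrier of thyroid hormone, had means of 3.18 ± 0.199 FPKM in siSox9 and 3.46 ± 0.0877 FPKM in siNC, and 1 siSox9 library overlapped siNC (limma, adjusted p = 0.204). For Slco5a1, an orphan carrier, the means were 1.37 ± 0.185 and 1.40 ± 0.0489 FPKM, and the sign of its log2 fold change of -0.02 turned under other scalings of the libraries. Slco1a5 was at 0.282, 0.349 and 0.259 FPKM in siSox9 and at 0.151, 0.234 and 0.303 FPKM in siNC, and Slco2b1 at 0.139 to 0.267 and 0.108 to 0.223 FPKM, so that both overlapped. The remaining 7 OATP genes were under 0.1 FPKM on average. They include Slco4c1, the OATP of the basolateral membrane of the proximal tubule, with at most 2 reads in a library, and Slco1a4 and Slco1c1, which were at 0 throughout and for which 3 reads would have been at most 0.0196 and 0.0242 FPKM.

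**Figure D3:**
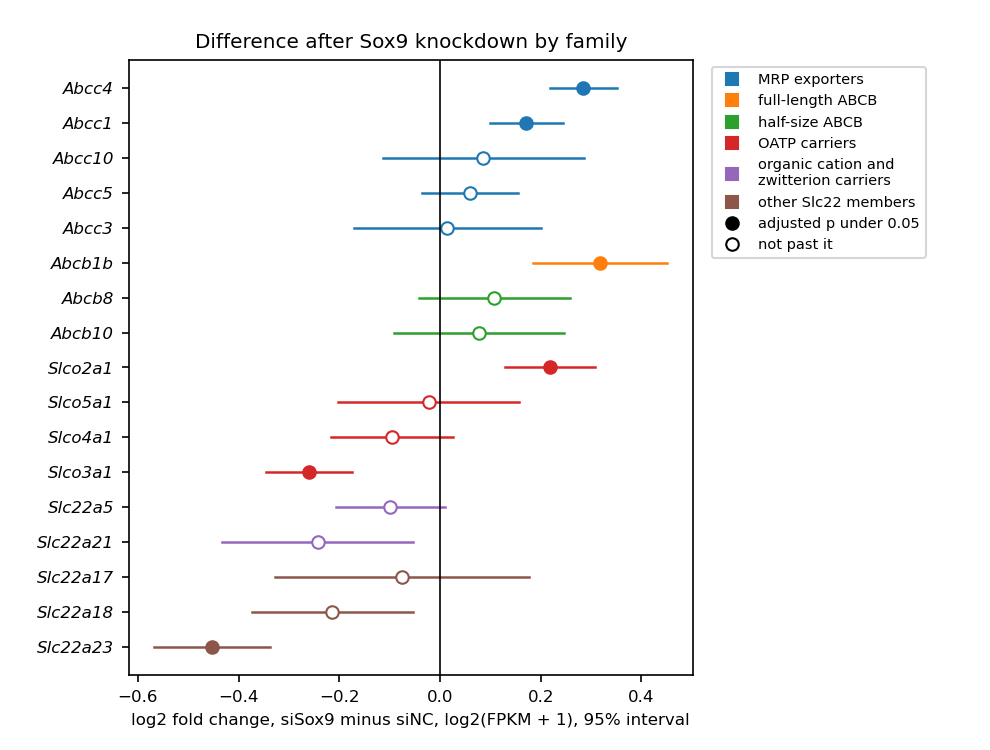
Log2 fold change (siSox9 minus siNC, on log2(FPKM + 1)) with its 95% interval for tested transporter genes, coloured by family, with filled points for adjusted p under 0.05. The filled points to the right of 0 are Abcc4, Abcc1, Abcb1b and Slco2a1, and those to the left are Slco3a1 and Slc22a23.

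None of the 5 tested SLC22 genes was higher with siSox9, and 1 was lower. Slc22a23, an SLC22 member without an established substrate, spans 34179158 to 34345182 on chromosome 13, on the - strand. It was at 17.7, 17.7 and 16.4 FPKM in siSox9 and at 24.1, 22.7 and 25.2 FPKM in siNC. The gap between the groups, 5.00 FPKM, was wider than the range within either of them. The mean fell by 28.1%, the largest fall among the tested transporters, with a log2 fold change of -0.45 (SE 0.049, limma, adjusted p = 0.000769). Slc22a18, from an imprinted region of chromosome 7, was at 2.97, 2.60 and 3.13 FPKM in siSox9 and at 3.30, 3.75 and 3.51 FPKM in siNC. Its groups did not overlap, but it missed the threshold (log2 fold change -0.21, limma, adjusted p = 0.0511). It passed without siSox9 replicate 3 (limma, adjusted p = 0.0494) or without siNC replicate 1 (limma, adjusted p = 0.0466). Leaving out any other library, it did not pass (limma, adjusted p from 0.0944 to 0.140). Slc22a17, a receptor for lipocalin-2 in the distal nephron, was at 1.67 ± 0.196 and 1.82 ± 0.384 FPKM (limma, adjusted p = 0.633).

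The carnitine carriers Slc22a5 (OCTN2) and Slc22a21 (OCTN3) and the ergothioneine carrier Slc22a4 (OCTN1) lie side by side on chromosome 11 within 164 kb, from 53864542 to 54028090. Slc22a5 was at 4.29, 4.27 and 4.31 FPKM in siSox9 and at 4.76, 4.87 and 4.38 FPKM in siNC. Slc22a21 stood at 1.05, 0.886 and 1.14 FPKM in siSox9 and at 1.54, 1.39 and 1.26 FPKM in siNC. In both genes every siSox9 library was below every siNC library, yet neither passed the threshold (limma, log2 fold change -0.10 and adjusted p = 0.148 for Slc22a5, -0.24 and 0.0582 for Slc22a21). On recovered reads, 82 to 99 in siSox9 and 114 to 139 in siNC, limma voom called Slc22a21 lower (log2 fold change -0.45, adjusted p = 0.0245), but not with no filter on low values (adjusted p = 0.0631). Slc22a4 was at 0.883, 0.879 and 1.05 FPKM in siSox9 and at 0.899, 1.01 and 1.17 FPKM in siNC, with overlap. Of the different 50-base stretches in their transcripts, 26.3% for Slc22a5, 22.0% for Slc22a21 and 2.64% for Slc22a4 were found also in another gene. The split of reads between Slc22a5 and Slc22a21 is thus uncertain.

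Several carriers known from organic ion transport in the proximal tubule were near 0, while Slc22a6 and Slc22a8 were not analysed here. The organic cation transporters Slc22a2 and Slc22a3 had means of 0.00317 and 0.00555 FPKM over the 6 libraries, and the MATE exporter Slc47a1 had at most 4 reads in a library. None of the 6 organic anion carriers was tested, among them Slc22a7 (OAT2), with a mean of 0.00661 FPKM, and Slc22a12 (URAT1), the urate reabsorber, at 0 in every library with 3 reads worth at most 0.0555 FPKM. Slc22a15, a carrier of zwitterions, was at 0.750 ± 0.0606 FPKM in siSox9 and 0.804 ± 0.0486 FPKM in siNC. Over all 27 genes with a mean under 0.1 FPKM, no library went above 0.115 FPKM. With no filter on low values, none of the genes under 1 FPKM passed the threshold, and 0 had an unadjusted p under 0.05 in limma or, for the 25 with recovered reads, in limma voom. No difference was thus detected in these genes, which is not to say that there was none. Their depth was unlike, with 247 to 300 reads in a library for Slc22a15. Under 0.1 FPKM, reads were too few for a moderate difference to be detectable.

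By family, all 9 tested ABCB and ABCC genes had a log2 fold change above 0 and all 5 tested SLC22 genes one below 0, with the OATP genes on both sides. These signs were the same when FPKM were rescaled to a common sum, centred on the median or quantile-normalized, but that of Abcc3 turned without siSox9 replicate 3 or siNC replicate 2, and that of Slc22a17 without siNC replicate 1. Most of these genes did not pass the test one by one, and the difference between the families was not tested. Over all genes tested the median log2 fold change was -0.01, so at least as many lay below 0 as above it. Abcg2, an ABC exporter outside these families, was lower (limma, adjusted p = 0.00323).

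Among 24 other genes of organic solute transport, 21 were analysed, 7 were tested, and 1 was higher and 1 was lower with siSox9. Slc13a2, the luminal citrate and dicarboxylate carrier NaDC1, was at 11.33, 10.50 and 10.05 FPKM in siSox9 and at 7.11, 5.58 and 6.47 FPKM in siNC (log2 fold change 0.66, limma, adjusted p = 0.00132). On the log2 scale this difference was larger than that of any of the 18 tested transporters. Abcg2, the exporter BCRP of urate and sulfated compounds, was at 10.1, 9.99 and 10.4 FPKM in siSox9 and at 11.7, 12.2 and 12.3 FPKM in siNC (log2 fold change -0.23, limma, adjusted p = 0.00323), so it fell while Abcc4 and Abcb1b rose. The nucleoside carrier Slc29a1 was at 1.97 ± 0.146 and 2.49 ± 0.260 FPKM and missed the threshold (limma, adjusted p = 0.0516). The other 14 genes analysed were under 1 FPKM, 10 of them under 0.1 FPKM.

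Of 12 transcription factors known to control such transporters, 5 were tested. Nfe2l2, which encodes NRF2 of the antioxidant response, rose from 33.0, 33.9 and 36.0 FPKM in siNC to 41.7, 43.1 and 45.0 FPKM in siSox9 (log2 fold change 0.33, limma, adjusted p = 0.00183). Ahr, the receptor for dioxins and related compounds, fell from 8.56, 8.40 and 8.61 FPKM to 7.60, 7.83 and 7.25 FPKM (log2 fold change -0.15, limma, adjusted p = 0.0217). Hnf4a, Ppara and the xenobiotic receptors Nr1i2 and Nr1i3 had means of at most 0.0193 FPKM in either group, and Nr1i3 was at 0 in all libraries.

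**Figure D4:**
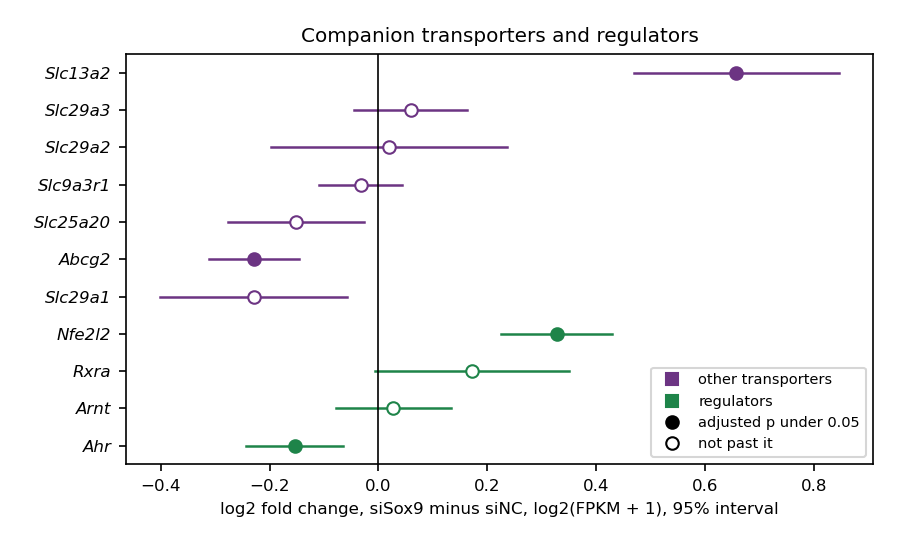
Log2 fold change (siSox9 minus siNC, on log2(FPKM + 1)) with its 95% interval for the 7 other solute transport genes and for regulators that were tested, with filled points for adjusted p under 0.05. Slc13a2 and Nfe2l2 lie to the right of 0, Abcg2 and Ahr to the left, and the intervals of Slc25a20 and Slc29a1 also exclude 0 though their adjusted p missed the threshold.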

How the data were processed

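Expression was measured by RNA-Seq in 3 siSox9 and 3 siNC libraries of TECs after H/R, grouped by the labels. The values are FPKM for each gene, as the authors deposited them, with no further scaling across libraries. The submitters' processing notes name Bowtie2 2.2.3, HISAT2 2.1.0, TopHat2 and mm9, with no role or order, while the positions in the table are those of GRCm38: of 30246 genes in GENCODE M21, 93.3% had the same position there, as had 45 of the 51 transporters. The tool that counted reads, the annotation, the use of strand and the treatment of reads with several matches are not given in the sources used here. A set of columns bears a name other than that of the control and was assigned to siSox9, which is the only other siRNA labelled.

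Whole reads were recovered from FPKM with exon lengths of GENCODE M21. In each library 93.3% to 93.4% of values, or 91.0% to 91.1% of those above 0, came out whole within 0.02 reads, 27948 genes did so in all libraries, and so did 43 of the 51 transporters, the others including Abcc4, Abcc1, Abcc5 and Slc22a17. Limits for genes at 0 use 3 reads, a share of the recovered total, and cover counting error only.

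The test was that of limma 3.58.1 in R 4.3.3, its eBayes step allowing for a trend, applied to log2(FPKM + 1), for genes averaging at least 1 FPKM, with Benjamini-Hochberg adjusted p under 0.05 over all 12009 genes tested and no replicate block. Intervals are at 95%. The test and voom were tested on simulated data. Tables and figures were made with Python 3.11.15, numpy 2.4.6, pandas 2.3.3 and matplotlib 3.10.9. The transporters and the lists were chosen with earlier results of these data known. Transporters tested are named, those under 1 FPKM are named from a mean of 0.1 FPKM, and genes of the other lists where they passed the threshold. Those under 0.1 FPKM, Slc29a1 and the markers that are named beyond this were chosen after their values were seen. Slc22a6, Slc22a8 and Slc51a were not analysed here, and a few genes that enter the counts are not reported here or drawn in the figures. The alternatives were a pseudocount of 0.1, no filter, a minimum of 5 FPKM, FPKM rescaled to a common sum (TPM), values centred on the median or quantile-normalized, the replicate number as a block and leaving out each library in turn. Limma voom on recovered reads was added after seeing the data.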

Additional observations from a re-analysis of the deposited data

How the results depend on the processing

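The 6 transporters that passed the threshold kept their direction and stayed past it in all 85 of their values under the 15 alternatives, 13 of them planned. Abcc4 ranged from 0.27 to 0.31 and Slc22a23 from -0.49 to -0.42 in log2 fold change. Abcc4 and Abcc1 have no value in limma voom, their reads not being recovered, and Abcb1b has none with a minimum of 5 FPKM. For the 12 that did not pass, 158 of 168 values kept their direction and their side of the threshold. Past it were Slc22a18 without siSox9 replicate 3 and without siNC replicate 1, Abcb8 without siNC replicate 1 and Slc22a21 in limma voom. The sign turned for Slco5a1 with median-centred (0.00456) and quantile-normalized values (0.0328) and without siSox9 replicate 3 (0.0419), for Abcc3 without siSox9 replicate 3 (-0.0406) and siNC replicate 2 (-0.0189), and for Slc22a17 without siNC replicate 1 (0.0341). With single libraries left out, Slco5a1 ranged from -0.0686 to 0.0419, Abcc3 from -0.0406 to 0.0712 and Slc22a17 from -0.136 to 0.0341. In limma voom the 14 transporters with recovered reads gave 2 higher and 3 lower. With no filter it gave 2 higher and 2 lower, Slc22a21 no longer passing (adjusted p = 0.0631). The median log2 fold change of the transporters, 0.03 as reported, was -0.00695 with no filter, 0.0771 with a minimum of 5 FPKM, 0.0663 quantile-normalized, -0.00969 in limma voom and -0.13 in limma voom with no filter, and moved from -0.000205 to 0.0397 as single libraries were left out. Leaving out libraries gave 4 to 5 transporters higher, 2 to 3 lower and 2424 to 3654 genes past the threshold over all genes. The median covered 18 transporters as reported and quantile-normalized, 47 with no filter and 9 with a minimum of 5 FPKM. In limma voom it covered 14, and 39 with no filter. With no filter and with a minimum of 5 FPKM, the tested transporters kept their log2 fold changes, so only the set of genes differed. The cause of the other shifts was not tested. Over all genes, 1532 were higher and 2118 lower, but 1959 and 1765 with median-centred values and 1812 and 1797 quantile-normalized.

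Same-numbered libraries did not deviate together (correlations of 0.0649, -0.0504 and 0.0078). No pairing by number was seen, but this cannot show whether such libraries were prepared together. With the replicate block 3262 genes passed in place of 3650, and 4 transporters were higher and 2 lower as without it, with a median log2 fold change of 0.03. Depth limits the low genes: the called transporters with recovered reads had at least 366 reads in a library, while 27 of the 51 genes were under 0.1 FPKM.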
